A study of Rattus norvegicus with 19 samples.

Results

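The genes examined here encode the nuclear subunits of the mitochondrial machinery for oxidative phosphorylation. They were chosen by gene symbol alone, from the platform annotation: symbols beginning with Nduf, Uqcr or Atp5, the 4 succinate dehydrogenase subunits Sdha to Sdhd, Cox4 to Cox8 followed by a letter, and Cycs. In all 86 of the 14217 genes with a probe set of a single symbol met this rule, through 96 probe sets, and each gene was represented by its probe set of highest mean level. By complex there were 36 genes of complex I, 6 assembly factors of complex I (Ndufaf), 4 of complex II, 7 of complex III, 17 of complex IV and 16 of complex V. Another 9 matching probe sets carried several gene symbols and were not named; all probe sets for Cycs and Cox7a2 were among them, so neither gene had a value. Cox6c-ps1 is annotated as a pseudogene of Cox6c, and the signals of this pair cannot be separated with certainty.

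The study set out to find what differs in the transcriptome of a sensory ganglion whose intact nerve fibres sprout into neighbouring denervated skin. The groups held 5 naive rats, 7 killed at day 7 after surgery and 7 killed at day 14, all adult female Sprague-Dawley rats, and each rat gave its single T11 dorsal root ganglion to an array of its own, without pooling. At surgery, under pentobarbital anaesthesia, the dorsal and lateral cutaneous nerves of the thoracic segments T9, T10, T12 and T13 were cut unilaterally, and those of T11 were left intact. Naive rats had no operation, so the effect of surgery as such and that of denervating the neighbouring skin cannot be told apart, and all 19 RNA samples went through a 2-round amplification primed at the poly(A) tail. The submitters removed 1 more naive array, which is not analysed here. Markers of the labelled tissue were bright: the 14 sensory neuron markers averaged between 12.03 and 12.33 log2 units on every array. Values of the whole table ran from 3.48 to 14.02. Fibroblast markers averaged 11.43 to 12.17 on the same arrays, and lay above the neuron markers on day 14 replicate 3 (12.17 against 12.03).

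Oxidative phosphorylation passes electrons from NADH through complex I, or from succinate through complex II, to ubiquinone, then through complex III and cytochrome c to complex IV, where oxygen is reduced. Complexes I, III and IV pump protons across the inner mitochondrial membrane, and complex V, the ATP synthase, uses the return flow to make ATP. Sensory neurons depend on this supply for ion pumping and for transport along long axons, and most subunits are encoded in the nucleus, with a core of others in mitochondrial DNA that is not among the genes examined here.

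Promoter sequences are shown for complex II, the complex whose genes stood highest relative to naive, and for Atp5mg, the promoter of a steeply varying gene that holds 3 of the motifs searched. The sequences are RefSeq's for assembly GRCr8, each 300 bases 5′ to 3′ on the gene's strand, with 250 bases before the annotated start and 50 after it. Capitals mark matches on either strand to the core of the NRF-1 site (GCATGCG), an ETS site of the kind bound by GABP (CCGGAAG), a YY1 site (AAGATGG) or a TATA box (TATAAA). NRF-1, GABP and YY1 are transcription factors known to act on many genes of mitochondrial respiration.
Sdha (chr1:30764303-30764602, plus strand): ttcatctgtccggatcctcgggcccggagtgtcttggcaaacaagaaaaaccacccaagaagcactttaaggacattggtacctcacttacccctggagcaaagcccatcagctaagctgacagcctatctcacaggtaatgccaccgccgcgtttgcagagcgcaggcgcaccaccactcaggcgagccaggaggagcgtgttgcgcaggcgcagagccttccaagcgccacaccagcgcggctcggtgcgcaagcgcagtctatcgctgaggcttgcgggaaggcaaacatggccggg
Sdhb (chr5:158547684-158547983, plus strand): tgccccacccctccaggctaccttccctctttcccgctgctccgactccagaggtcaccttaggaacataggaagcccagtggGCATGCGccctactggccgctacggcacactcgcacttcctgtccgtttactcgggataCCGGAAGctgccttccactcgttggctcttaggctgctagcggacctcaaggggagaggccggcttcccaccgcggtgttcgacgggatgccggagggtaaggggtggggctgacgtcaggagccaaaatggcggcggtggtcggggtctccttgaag
Sdhc (chr13:86097976-86098275, minus strand): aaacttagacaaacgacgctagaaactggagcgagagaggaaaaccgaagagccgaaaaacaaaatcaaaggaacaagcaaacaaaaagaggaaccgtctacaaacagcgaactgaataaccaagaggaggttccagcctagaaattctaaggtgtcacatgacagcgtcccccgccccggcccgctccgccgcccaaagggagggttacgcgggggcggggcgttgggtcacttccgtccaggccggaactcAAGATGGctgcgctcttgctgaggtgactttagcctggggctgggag
Sdhd (chr8:59850592-59850891, minus strand): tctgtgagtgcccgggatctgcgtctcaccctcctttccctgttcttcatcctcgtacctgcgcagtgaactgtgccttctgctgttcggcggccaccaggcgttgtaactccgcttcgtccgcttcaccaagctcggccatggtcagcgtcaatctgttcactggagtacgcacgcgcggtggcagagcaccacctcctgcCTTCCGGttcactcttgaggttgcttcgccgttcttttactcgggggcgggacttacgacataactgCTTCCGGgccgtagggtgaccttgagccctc
Atp5mg (chr8:54130358-54130657, minus strand): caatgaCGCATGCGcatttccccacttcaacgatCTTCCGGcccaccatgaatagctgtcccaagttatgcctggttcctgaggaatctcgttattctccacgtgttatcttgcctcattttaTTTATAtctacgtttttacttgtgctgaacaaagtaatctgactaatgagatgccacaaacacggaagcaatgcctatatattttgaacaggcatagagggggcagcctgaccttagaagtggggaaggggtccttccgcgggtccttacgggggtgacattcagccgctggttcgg

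Sdha, the flavoprotein subunit that oxidises succinate, held none of the 4 motifs in this window. Sdhb, the iron-sulfur subunit, held an NRF-1 core starting 167 bases before the annotated start and an ETS match starting 108 bases before it. Sdhc, which anchors the complex in the membrane, held a YY1 match starting 3 bases after the start, and Sdhd, the other anchor, held 2 ETS matches on the opposite strand. In Atp5mg, a membrane subunit of the ATP synthase, the NRF-1 core was matched on both strands at overlapping positions, beside an ETS match and a TATA match on the opposite strand. Promoters were matched by gene identifier for 78 of the 86 genes. The NRF-1 core was found in 11 of the 78 (14.1%), against 5.44% of the 11700 array genes with a promoter and 3.54% of all 27457 promoters. The ETS motif was found in 22 (28.2%), against 15.1% of array genes and 9.22% of all. The YY1 motif was found in 20 (25.6%), against 7.84% of array genes and 7.3% of all. TATAAA was found in 8 (10.3%), against 8.45% of array genes and 14.3% of all. At least 1 of the NRF-1, ETS and YY1 motifs was present in 39 of the 78, or 50%, against 25.2% of array genes. These are matches of letters, not shown binding sites. None of the genes below changed past the threshold, so no promoter feature could be set beside a change.

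At day 7 and at day 14 the oxidative phosphorylation genes as a group lay at the level of naive rats. The mean over the 86 genes was 10.96, 10.92, 10.90, 10.68 and 10.79 log2 units on the 5 naive arrays. It ran from 10.76 to 10.95 (median 10.86) at day 7 and from 10.79 to 10.96 (median 10.85) at day 14, so all 3 groups overlapped and both operated groups lay within the naive range. With limma, 0 of 86 genes passed an adjusted p of 0.05 at day 7, against 0.0% of all 31042 probe sets, and 3 of 86 had an unadjusted p under 0.05, against 8.7% of all. At day 14 also 0 of 86 passed, against 0.139% of all probe sets, and 6 had an unadjusted p under 0.05, against 19.7% of all. Between day 14 and day 7 again 0 of 86 passed, against 0.0% of all, and 4 had an unadjusted p under 0.05, against 11.3% of all. No other tool was run for these counts, and with limma's other settings they were 0 as well. In bulk tissue, fewer cells of a type and less RNA per cell cannot be told apart.

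The median log2 difference of the 86 genes was -0.003 at day 7 and 0.019 at day 14, both against the same naive arrays, and 0.003 between day 14 and day 7. The medians over all probe sets were 0.007, 0.021 and 0.011. Above naive lay 43 of the 86 genes at day 7 and 49 at day 14, against 53.0% and 56.4% of all probe sets, and 48 lay higher at day 14 than at day 7, against 55.0%. Naive replicate 4 lay lowest of all 19 arrays. Without it the median was -0.036 at day 7 and -0.029 at day 14, with 30 and 34 of 86 genes above naive, and without naive replicate 1, the highest of its group, it was 0.022 and 0.039. Without the 3 arrays high in muscle transcripts, described with Cox6a2, it was 0.036 and 0.043, with 62 and 63 genes above naive, and 0 genes passed. Within the arrays whose animal codes begin with AJ the median was -0.072 at day 7 (5 against 2 rats) and -0.047 at day 14 (2 against 2). Within those beginning with AK it was 0.085 at day 7 (2 against 3 rats). The labels do not say what these letters stand for, and AI occurred at day 14 alone.

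**Figure D1:**
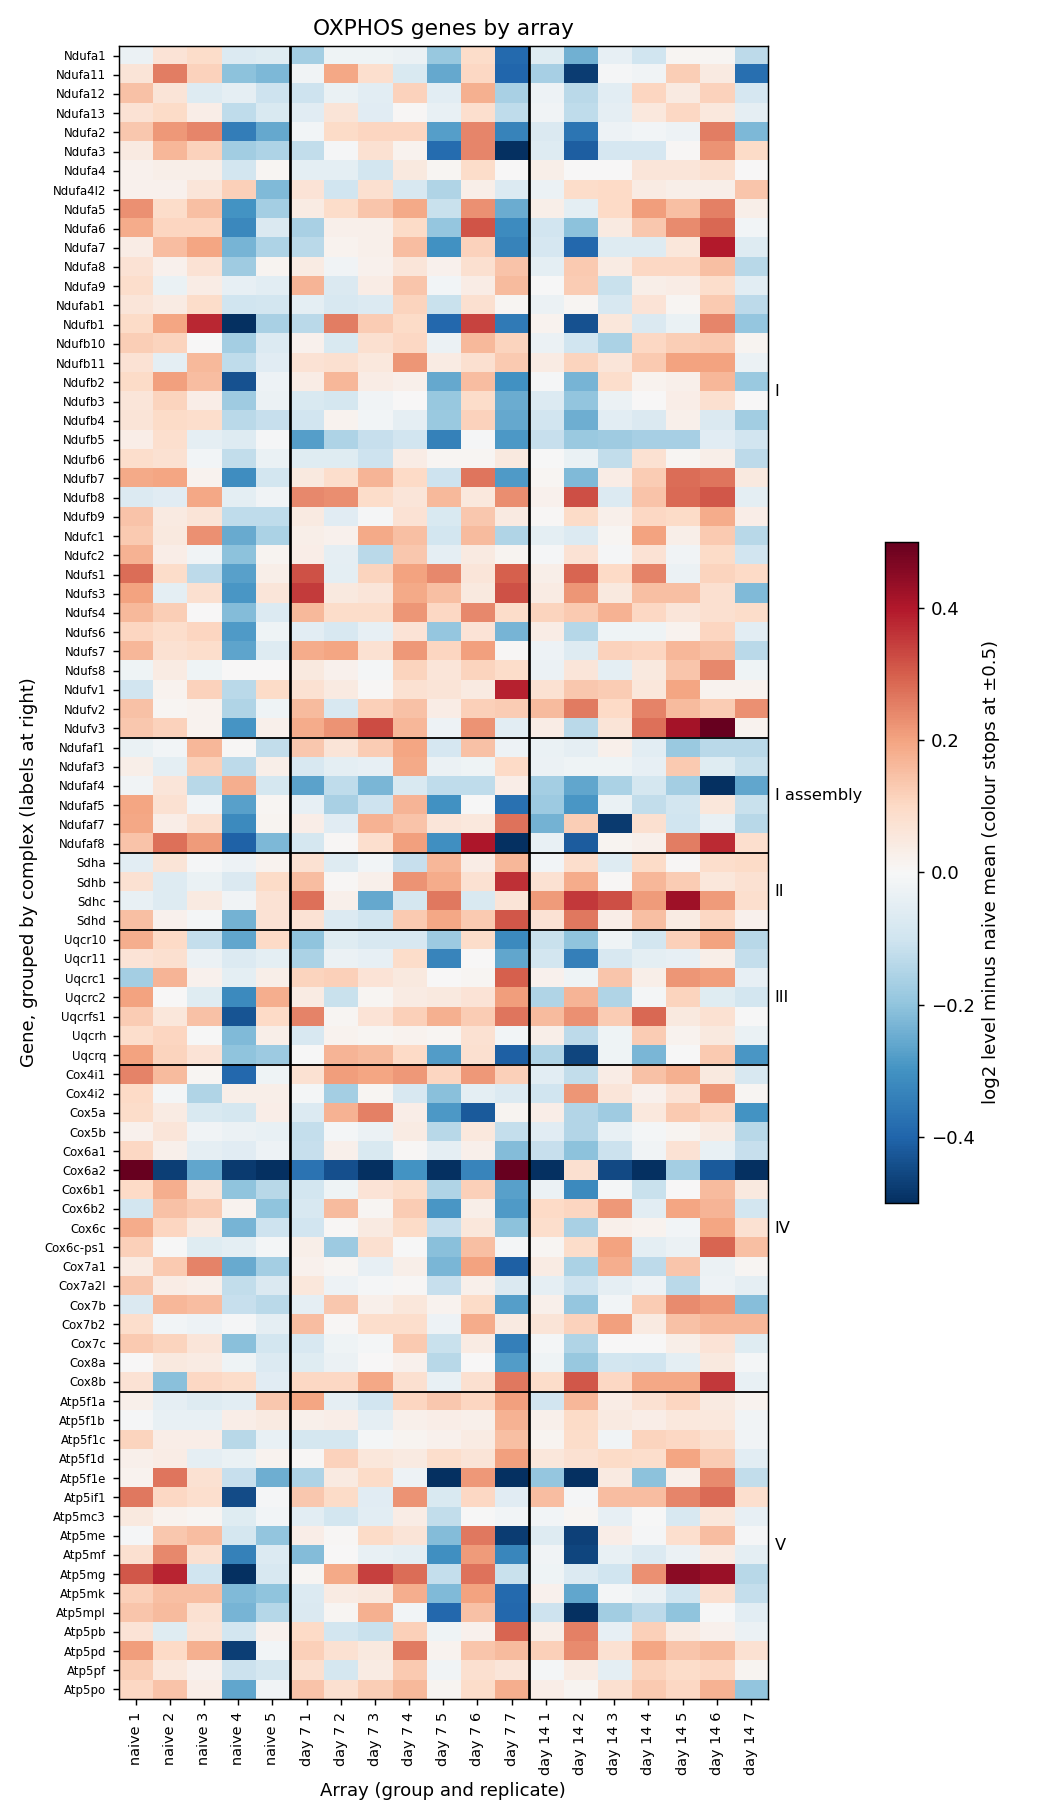
Log2 level of each of the 86 genes (down the page, by complex) on each of the 19 arrays (across, by group and replicate), as the difference from the gene's naive mean. Colours stop at ±0.5. On some arrays most genes shift together: naive replicate 4 is below the naive mean in 78 of 86 genes, while day 7 replicate 6 is above it in 77. On others the split is near even, as on day 7 replicate 1 (46 above, 40 below) and day 14 replicate 3 (41 above, 45 below).

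The precision allowed large shifts to be bounded for nearly every gene. For differences from naive, the standard error had a median of 0.072 log2 units over the 86 genes, against 0.080 over all probe sets. At both days the 95% interval of 85 of 86 genes lay inside ±0.5 log2 units, a fold of 1.41, with Cox6a2 as the exception. Inside ±0.3, a fold of 1.23, lay 69 genes at day 7 and 64 at day 14. For smaller shifts a missed threshold does not show that levels were alike.

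**Figure D2:**
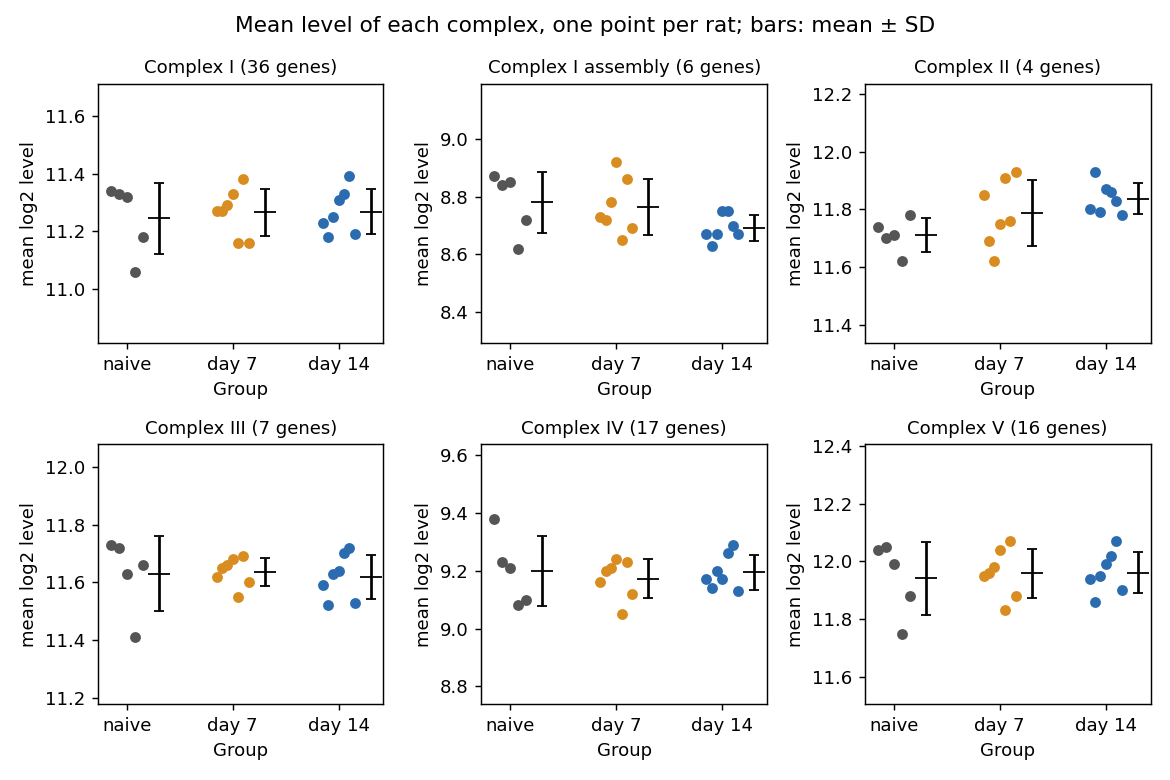
Mean log2 level of the genes of each complex, with 1 point per rat and the mean ± SD of each group beside the points (5 naive, 7 day 7 and 7 day 14 rats). Complex II is 11.71 ± 0.06 in naive rats, 11.79 ± 0.12 at day 7 and 11.84 ± 0.05 at day 14. Its day 7 points span the naive range, and its day 14 points meet that range at 11.78. The other complexes overlap throughout.

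Complex I, the NADH dehydrogenase, has a catalytic core and a shell of accessory subunits. Its 36 genes had a median difference of -0.003 at day 7 and 0.019 at day 14, with 18 and 22 above naive. Ndufv2, an iron-sulfur subunit of the NADH-oxidising module, had the smallest p of all members at day 14. It ranged from 11.99 to 12.15 (median 12.05) at day 14, against 12.04, 11.90, 11.91, 11.74 and 11.87 in naive rats. Of the 7 day 14 arrays, 5 lay above every naive array. The difference was 0.18 ± 0.06 (SE) and did not pass with limma (adjusted p = 0.114). The adjusted p ran from 0.0529 to 0.894 over 32 alternatives. At day 7 Ndufv2 stood at 0.09 ± 0.06.

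Ndufb5, an accessory subunit of the membrane arm, lay in the other direction and had the smallest p at day 7. It ranged from 12.03 to 12.36 (median 12.21) at day 7 and from 12.18 to 12.31 (median 12.20) at day 14, against 12.40, 12.45, 12.32, 12.30 and 12.36 in naive rats. At each day 6 of 7 arrays lay below every naive array. The difference was -0.18 ± 0.06 (SE) at day 7 and did not pass with limma (adjusted p = 0.426, with 0.275 to 0.999 over 32 alternatives). At day 14 it was -0.14 ± 0.06, with an adjusted p of 0.201 (0.176 to 0.876). Its sign stayed negative in every alternative, from -0.21 to -0.15 at day 7 and from -0.15 to -0.11 at day 14, with the array codes as a block included, and within AJ it stood at -0.22 and -0.17. Within AK it stood at -0.08 at day 7 (2 against 3 rats).

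Ndufs4, an accessory subunit needed for assembly of the NADH-oxidising module, ranged from 9.18 to 9.33 (median 9.19) at day 7, against 9.25, 9.21, 9.09, 8.87 and 9.02 in naive rats. The groups overlapped, and the difference of 0.14 ± 0.06 (SE) did not pass with limma (adjusted p = 0.514). Ndufs1, the largest iron-sulfur subunit of the core, stood highest in complex I at day 7, at 0.17 ± 0.09, and at 0.12 ± 0.09 at day 14. Ndufa4, which the symbol places here although structural work assigns it to complex IV, stood at -0.01 ± 0.04 at day 7 and 0.03 ± 0.04 at day 14. Its hypoxia-induced relative Ndufa4l2 stood at -0.03 ± 0.06 and 0.06 ± 0.06. Ndufa7 had probe sets that disagreed, as noticed after the values were seen: the brightest stood at -0.03 at day 14 and the other at -0.36 (limma adjusted p = 0.118). Also chosen after values were seen, the 6 measured core genes (Ndufs and Ndufv subunits of the catalytic core) had a median of 0.12 at day 7, with 6 of 6 above naive. The 28 accessory genes had a median of -0.01, with 12 above naive. Without naive replicate 4 the core median at day 7 was 0.075, with 6 of 6 above, and the accessory median was -0.048, with 7 above. Ndufs1 then stood at 0.101 and Ndufs4 at 0.088 at day 7, and Ndufs1 at 0.055 at day 14. At day 14 the core median was 0.079, with 6 of 6 core and 14 of 28 accessory genes above naive. Without naive replicate 4 it was 0.055, with 4 of 6 and 9 of 28 above. Between day 14 and day 7, 1 of 6 core and 18 of 28 accessory genes lay higher at day 14. The difference between these sets was not tested.

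The 6 assembly factors, which help build complex I and are not part of it, had a median of -0.015 at day 7 and -0.097 at day 14, with 5 of 6 below naive at day 14. Ndufaf4 had the smallest p among them. It ranged from 8.0 to 8.59 (median 8.51) at day 14, against 8.66, 8.74, 8.54, 8.86 and 8.59 in naive rats, and 6 of 7 day 14 arrays lay below every naive array. The difference was -0.25 ± 0.08 (SE) and did not pass with limma (adjusted p = 0.133, with 0.102 to 0.946 over 32 alternatives). Day 14 replicate 6, at 8.0, was the lowest, with the next at 8.42, and without it the difference was -0.185. Within AJ it was -0.05 at day 14. Ndufaf1 ranged from 6.47 to 6.68 (median 6.60) at day 14, against 6.57 to 6.85 (median 6.78) at day 7. Day 14 minus day 7 was -0.16 ± 0.05 (SE; limma adjusted p = 0.340, with 0.268 to 0.987 over alternatives), and 3 of 7 day 14 arrays lay below every day 7 array.

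Complex II, succinate dehydrogenase, links the citric acid cycle to the respiratory chain and does not pump protons. All 4 of its genes lay above naive at both days, with a median of 0.068 at day 7 and 0.10 at day 14. None passed the threshold. Without naive replicate 4 all 4 still lay above naive, with medians of 0.035 and 0.062. Sdhc ranged from 11.38 to 11.72 (median 11.51) at day 14 and from 11.04 to 11.57 (median 11.32) at day 7, against 11.26, 11.23, 11.34, 11.28 and 11.37 in naive rats. All 7 day 14 arrays lay above all 5 naive arrays, 11.38 against 11.37 at the nearest, and it was the single gene of 86 whose groups did not overlap, as in 1.82% of all probe sets. At day 7 against naive and at day 14 against day 7 no gene of the 86 was without overlap, against 0.441% and 0.187% of all probe sets. Day 7 arrays lay on both sides of the naive range. The difference was 0.26 ± 0.08 (SE) at day 14 against naive and did not pass with limma (adjusted p = 0.117, with 0.101 to 0.810 over 32 alternatives). It was 0.03 ± 0.08 at day 7 against naive, and 0.23 ± 0.07 between day 14 and day 7 (adjusted p = 0.320, with 0.246 to 0.987 over alternatives). Within AJ Sdhc stood at 0.26 at day 14 against naive (2 against 2 rats) and at 0.22 between day 14 and day 7 (2 against 5). Within AK at day 7 (2 against 3 rats) Sdha stood at -0.03, Sdhb at 0.06, Sdhc at -0.02 and Sdhd at 0.08.

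Sdhb ranged from 11.80 to 12.16 (median 11.95) at day 7, against 11.87, 11.73, 11.76, 11.72 and 11.89 in naive rats. Of the 7 day 7 arrays, 4 lay above every naive array. The difference was 0.15 ± 0.06 (SE; limma adjusted p = 0.509, with 0.301 to 0.999 over alternatives), and at day 14 it was 0.10 ± 0.06. Sdhd stood at 0.10 ± 0.07 at both days, and its other probe set, of lower mean level, stood at 0.25 and 0.21. Without naive replicate 4, where it was lowest, Sdhd stood at 0.039 at day 7 and 0.04 at day 14. Sdha stood at 0.04 ± 0.05 at both days. The complex II mean ranged from 11.78 to 11.93 at day 14, against 11.74, 11.70, 11.71, 11.62 and 11.78 in naive rats, so the groups met at 11.78.

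Complex III, the cytochrome bc1 complex, showed no common direction. Its 7 genes had a median of 0.006 at day 7 and -0.025 at day 14. Uqcrfs1, the Rieske iron-sulfur subunit, ranged from 10.83 to 11.09 (median 10.95) at day 7 and from 10.82 to 11.11 (median 10.95) at day 14, against 10.95, 10.88, 10.97, 10.39 and 10.92 in naive rats. The groups overlapped, and naive replicate 4 lay far below the rest. The differences were 0.14 ± 0.08 (SE) and 0.13 ± 0.08, and without that array they were 0.034 and 0.024. The small subunits Uqcr10 and Uqcrq were the lowest, Uqcr10 at -0.12 ± 0.09 at day 7 and Uqcrq at -0.15 ± 0.11 at day 14.

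Complex IV, cytochrome c oxidase, had a median of -0.042 at day 7, with 4 of 17 genes above naive, and 0.01 at day 14, with 9 above. Cox4i1, the widely expressed form of its regulatory subunit 4, ranged from 11.21 to 11.35 (median 11.33) at day 7, against 11.38, 11.29, 11.14, 10.74 and 11.11 in naive rats. The groups overlapped, with differences of 0.17 ± 0.08 (SE) at day 7 (limma adjusted p = 0.601) and 0.02 ± 0.08 at day 14. Without naive replicate 4, the lowest array, they were 0.067 and -0.075. Several genes of complex IV have forms restricted to lung, muscle or testis. Most were dim, and Cox4i2, Cox6a2, Cox7b2, Cox8b and Cox6c-ps1 were the 5 genes of the 86 with a mean below 6 log2 units, where 39.6% of all probe sets lay. A difference there may be of little more than background. Cox8b stood at 0.17 ± 0.07 and Cox7b2 at 0.13 ± 0.05 at day 14, with limma adjusted p of 0.199 and 0.164 (0.125 to 0.931 and 0.105 to 0.868 over 31 alternatives). Cox4i2 stood 0.16 ± 0.06 higher at day 14 than at day 7 (adjusted p = 0.357, with 0.280 to 0.987 over alternatives). Cox6b2 stood at -0.05 and 0.09 and Cox7a1 at -0.06 and 0.01 at day 7 and day 14. Their widely expressed partners Cox6a1 (-0.06 and -0.07), Cox6b1 (-0.03 and -0.04) and Cox8a (-0.07 and -0.06) lay slightly below naive at both days, none past the threshold.

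Cox6a2, the form of subunit 6a found in heart and skeletal muscle, was the most variable gene, with an SD between rats of a group of 0.594, against a median of 0.121 over the 86 genes. It read 7.09 on naive replicate 1 and 4.78 to 5.07 on the other naive arrays, 6.13 on day 7 replicate 7 and 4.76 to 5.03 on the others of that group, and 5.41 on day 14 replicate 2 and 4.74 to 5.16 on the others. On these 3 arrays the mean of 18 skeletal muscle markers was also the highest of its group, at 9.37, 9.04 and 7.81, against 6.19 to 7.06 on the other 16. Over the 19 arrays Cox6a2 followed the muscle mean with r = 0.94, and with r = 0.74 without the 2 arrays farthest from the median. Cox7a1 and Cox8b, also muscle forms, had r of -0.32 and 0.29, and -0.10 and 0.38 without those 2. These are descriptions, and values of an array share its RNA and normalization. The difference of Cox6a2 from naive was -0.25 ± 0.31 (SE) at day 7 and -0.38 ± 0.31 at day 14 (limma adjusted p = 0.863 and 0.503), and without naive replicate 1 it was 0.190 and 0.062. The part of muscle tissue in these values was not tested beyond this.

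**Figure D3:**
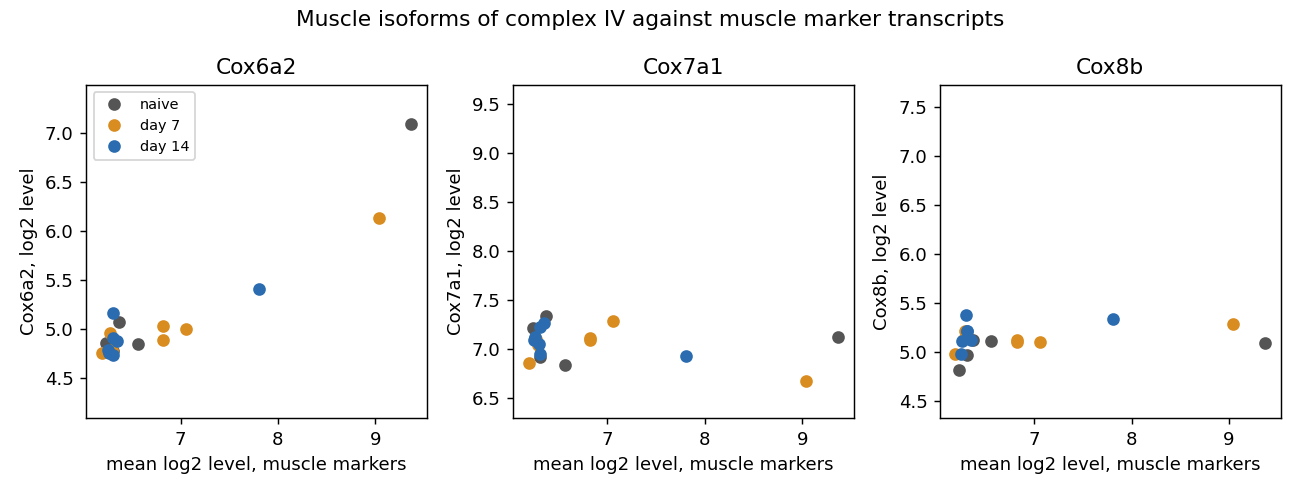
Log2 level of 3 muscle forms of complex IV subunits (vertical axes, each spanning the same range of log2 units) against the mean log2 level of the skeletal muscle markers, with 1 point per rat, coloured by group. Cox6a2 is high on the 3 arrays with muscle means of 9.37, 9.04 and 7.81, and Cox7a1 and Cox8b show no such rise.

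Complex V, the ATP synthase, had a median of 0.037 at day 7 and 0.045 at day 14, with 10 of 16 genes above naive at each. Atp5if1, the inhibitor that blocks the enzyme from running in reverse, ranged from 11.88 to 12.17 (median 12.04) at day 14, against 12.15, 11.99, 11.97, 11.44 and 11.88 in naive rats. The groups overlapped. Atp5if1 stood at 0.15 ± 0.09 (SE) at day 14 (limma adjusted p = 0.358) and at 0.041 without naive replicate 4, the lowest array. Atp5mg stood at 0.13 ± 0.14 at day 7 and at -0.003 without that array. Atp5f1e, a small subunit of the catalytic part, stood at -0.13 ± 0.14 at day 7, and Atp5mpl, a small membrane subunit, at -0.17 ± 0.11 at day 14, where day 14 replicate 2 was lowest at 10.12. Without that replicate Atp5mpl stood at -0.111. The catalytic subunit Atp5f1b, which had an SD between rats of only 0.048, stood at 0.03 ± 0.04 at day 7 and 0.04 ± 0.04 at day 14.

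**Figure D4:**
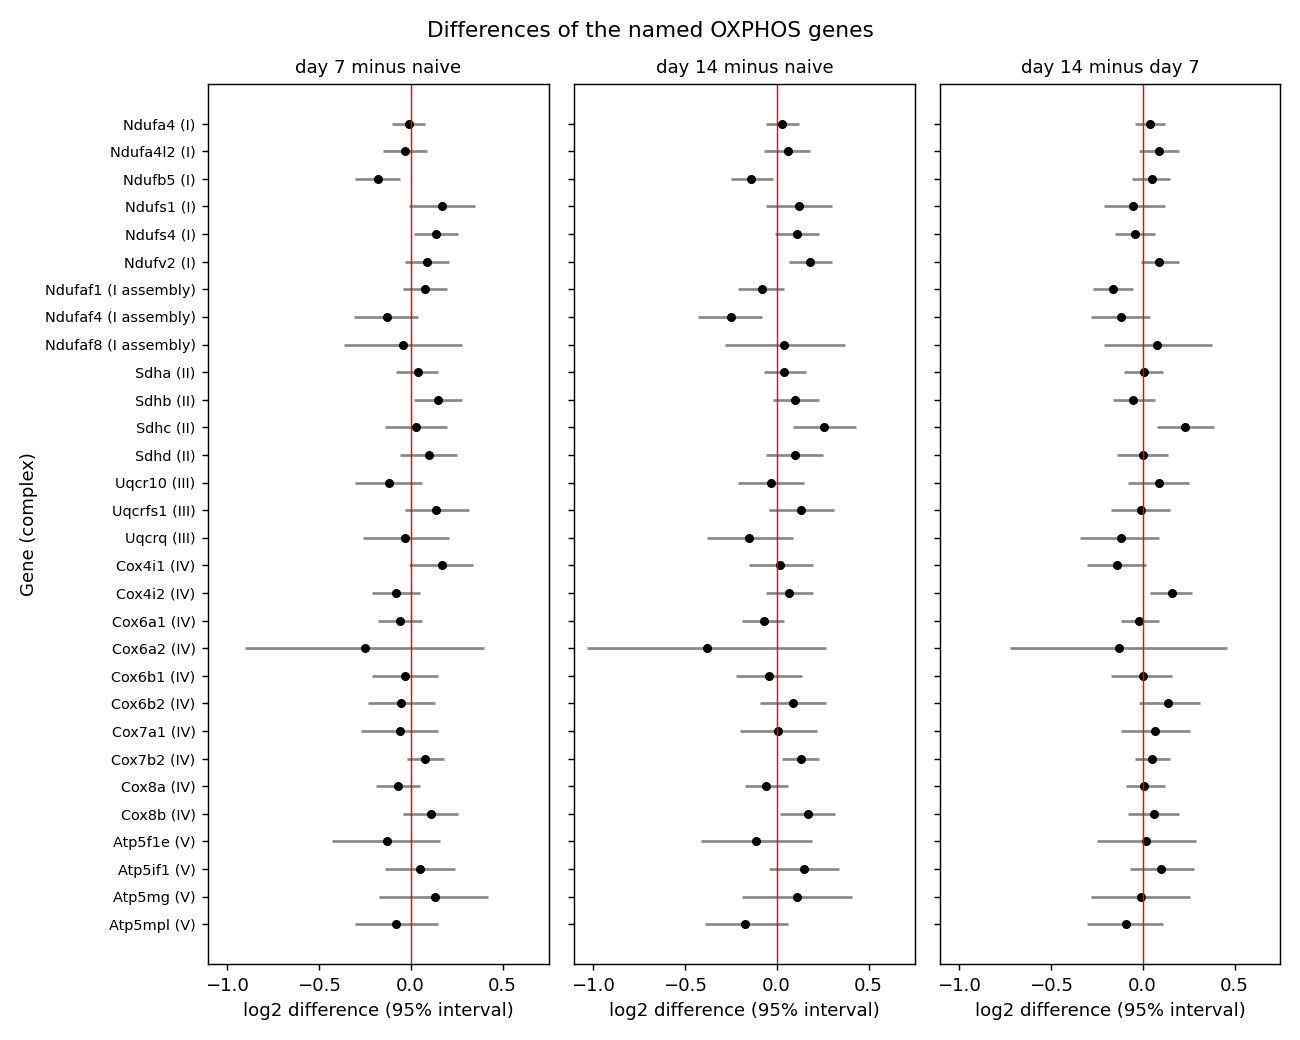
Log2 differences with 95% intervals for 30 genes, ordered by complex, for day 7 minus naive, day 14 minus naive and day 14 minus day 7. The intervals of Ndufb5, Ndufv2, Ndufaf4 and Sdhc are among those that exclude 0 in at least 1 panel before adjustment, and none passed after adjustment over all probe sets. Cox6a2 has the widest interval, from -1.03 to 0.27 at day 14.

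The genes varied together between rats of the same group. With group means removed, the median pairwise correlation of the 86 genes was 0.34, with 76.2% of pairs above 0, against 0.01 and 50.7% for every fiftieth probe set of the table. This comparison was not matched for level: 39.6% of all probe sets had a mean below 6 log2 units, against 5 of the 86 genes. Of the 86 genes, 78 had a positive correlation with the mean of the others. Without Cox6a2, the leading component held 59.7% of this variance and had weights above 0 for 71 of 85 genes. The largest weights were those of Ndufaf8, Ndufb1, Atp5f1e, Atp5mg, Ndufa2 and Ndufa3, mostly small accessory subunits. Weights of the opposite sign were small, from -0.003 (Ndufa9) to -0.06 (Ndufaf4), against 0.278 for Ndufaf8. Besides these 2 genes, Ndufa9 and Ndufaf4, they were those of all 4 complex II genes, Atp5f1a, Atp5f1b, Atp5pb, Ndufv1, Ndufs1, Ndufb8, Uqcrc2 and Cox8b. The array scores were lowest on day 7 replicate 7 (-1.72), naive replicate 4 (-1.62), day 14 replicate 2 (-1.53) and day 7 replicate 5 (-1.19), and highest on day 14 replicate 6 (1.25) and day 7 replicate 6 (1.24). Over arrays, with group means removed, the mean of complex V followed that of the other complexes with r = 0.99, complex I with 0.96, complex III with 0.91 and complex IV with 0.87, and complex II with -0.20. These correlations are over 19 arrays that share a normalization, and are given as a description.

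The relation to the 3′ minus 5′ control signal was examined because amplification primed at the poly(A) tail, and loss of RNA length, both lower the 5′ signal. The signal was taken as the mean over the beta-actin, Gapdh and hexokinase control transcripts of the log2 level of the 3′ probe set minus that of the 5′ one. It was 2.53, 2.59, 2.72, 2.97 and 2.68 on the naive arrays, and ran from 2.53 to 2.72 (median 2.69) at day 7 and from 2.54 to 2.76 (median 2.66) at day 14. The groups overlapped, and naive replicate 4 had the highest signal of all arrays. The difference from naive was -0.04 at each day, with exact permutation p of 0.646 at day 7 and 0.625 at day 14 (two-sided, 792 regroupings, adjusted p = 0.936 for each over the 3 comparisons). The 3 transcripts did not move together: against naive, Gapdh stood at -0.22 and -0.20 at day 7 and day 14, and hexokinase at 0.17 and 0.18. Hexokinase was dim, with a mean of 6.06 at its 3′ end and 4.67 at its 5′ end.

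Oxidative phosphorylation genes tended to be lower on arrays with a higher signal. With group in the limma fit, 80 of 86 slopes were negative, against 56.6% of all probe sets, with a median of -0.52 log2 units per unit of signal, against -0.08 over all. With limma 0 of 86 passed an adjusted p of 0.05, against 0.0548% of all probe sets (17). At an unadjusted p under 0.05 there were 40, all negative (46.5%), against 16.0% of all probe sets and 8.69% for negative slopes. By complex the median slope was -0.55 in complex I, -0.50 in its assembly factors, -0.07 in complex II, -0.78 in complex III, -0.35 in complex IV and -0.56 in complex V. The difference between complexes was not tested.

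The steepest slopes were those of Cox6a2 (-2.30 ± 1.21, SE), Atp5mg (-1.72 ± 0.46) and Ndufaf8 (-1.44 ± 0.57), with limma adjusted p of 0.356, 0.102 and 0.230. The slope of Cox6a2 was -0.168 without naive replicate 1. Atp5if1 had the smallest p, with a slope of -1.29 ± 0.25 and an adjusted p of 0.0574 (0.0291 to 0.762 over 34 alternatives). The highest were Ndufaf4 (0.64 ± 0.32), Ndufa4l2 (0.19 ± 0.24) and Sdha (0.12 ± 0.23). Over the 19 arrays the mean of the 86 genes had r = -0.73 with the signal (Spearman -0.55), and r = -0.49 without naive replicates 4 and 1, the 2 farthest from its median. Within day 7 r was -0.63 and within day 14 -0.40 (n = 7 each), and within AJ -0.52 (n = 9). Leaving out the 2 farthest arrays gave -0.10, -0.18 and 0.22. The naive group, with 5 arrays, was too small for a value.

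The direction held when any single array was left out, with 79 to 81 of 86 slopes negative and a median from -0.591 to -0.45. The count at an unadjusted p under 0.05 depended on naive replicate 4: without it 8 genes (9.3%) in place of 40 were under 0.05, against 14.1% of all probe sets, while 80 of 86 slopes were negative and the median was -0.45. The choice of control transcript moved both the median and the counts. In alternatives chosen after seeing the data, except Gapdh alone, the median slope was 0.02 with Gapdh, -0.26 with beta-actin, -0.25 with hexokinase and -0.20 with beta-actin and Gapdh together. The genes past the threshold then numbered 1 (Uqcrfs1), 0, 11 and 0. At an unadjusted p under 0.05 there were 17 genes with Gapdh (13 of them negative), or 19.8%, against 11.3% of all probe sets. There were 11 with beta-actin (12.8%, against 10.6% of all), 46 with hexokinase (45 of them negative; 53.5%, against 19.5% of all) and 14 with beta-actin and Gapdh together (16.3%, against 10.2% of all). Over arrays the mean of the 86 genes had r = -0.52 with beta-actin, -0.07 with Gapdh and -0.65 with hexokinase. Without naive replicate 4 these were -0.39, 0.60 and -0.69, so Gapdh then ran in the opposite direction. With beta-actin and Gapdh together r was -0.35, and it was 0.13 without that array, so this direction turned as well. Whether the control signal, RNA length or amplification has a part in the joint variation was not tested.

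**Figure D5:**
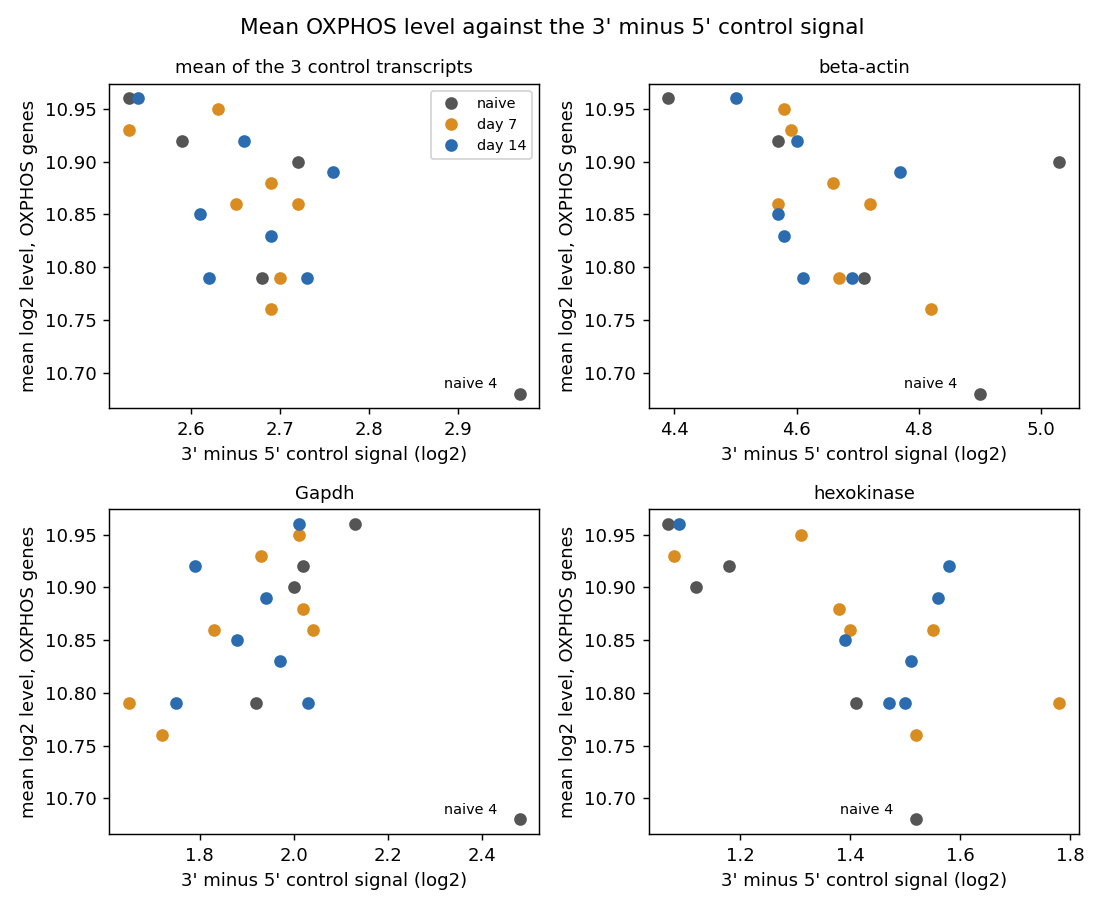
Mean log2 level of the 86 genes (vertical) against the 3′ minus 5′ control signal (horizontal, log2), with 1 point per rat, coloured by group, for the mean of the 3 control transcripts and for each alone. Naive replicate 4 (signal 2.97, mean 10.68) stands apart at the lower right for the mean signal and for Gapdh. Without it, r is -0.56 for the mean signal and 0.60 for Gapdh.

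With the signal as a covariate, the median differences of the 86 genes were -0.022 at day 7, -0.012 at day 14 and 0.001 between day 14 and day 7, and 0 genes passed in each comparison. On the same arrays, all 7 measured myelinating Schwann cell markers and all 6 fibroblast markers lay below naive at day 7. Each list had a median of -0.21, and 47.0% of all probe sets lay below naive. With group means removed, the mean of each list had r = -0.51 with the mean of the 86 genes. Without the 2 farthest arrays r was -0.34 for Schwann cell and -0.48 for fibroblast markers. The 14 sensory neuron markers had r = -0.23, and -0.19 without the 2 farthest arrays. The part of such cells in the values of the 86 genes was not tested.

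Other mitochondrial genes also gave no call in a group comparison, though the lists differed in direction. Of 73 genes of the mitochondrial ribosome, which translates the subunits encoded in mitochondrial DNA, 0 passed in any comparison with limma. At an unadjusted p under 0.05 there were 7 at day 7 (9.59%, against 8.7% of all probe sets), 8 at day 14 (11%, against 19.7%) and 6 between day 14 and day 7 (8.22%, against 11.3%). Mrps31 had the smallest p, at -0.21 ± 0.06 (SE) at day 14 (adjusted p = 0.0908), and Mrps7 stood at 0.21 ± 0.07 at day 7. Of 33 further assembly factors 0 passed. At an unadjusted p under 0.05 there were 9 at day 7 (27.3%, against 8.7% of all probe sets), 8 at day 14 (24.2%, against 19.7%) and 3 between day 14 and day 7 (9.09%, against 11.3%). Among them were Acad9, an assembly factor of complex I, at 0.22 ± 0.07 at day 7 (adjusted p = 0.426) and Bcs1l, an assembly factor of complex III, at -0.16 ± 0.06 at day 14 (adjusted p = 0.153). None of the 15 genes of the citric acid cycle and pyruvate dehydrogenase, 14 of glycolysis, 9 of mitochondrial carriers and channels and 11 regulators of mitochondrial biogenesis passed either. The numbers at an unadjusted p under 0.05 were 0, 0, 0 and 2 (18.2%) at day 7, against 8.7% of all probe sets. At day 14 they were 0, 0, 1 (11.1%) and 2 (18.2%), against 19.7% of all. Between day 14 and day 7 they were 0 in each, against 11.3% of all. Of the 11 regulators, 9 lay below naive at each day (81.8%, against 47.0% and 43.6% of all probe sets). Their mean ran from 8.30 to 8.38 on naive arrays, from 8.22 to 8.28 at day 7 and from 8.19 to 8.32 at day 14. The directions of these lists were not tested. Ckmt1, the mitochondrial creatine kinase, stood at -0.40 ± 0.11 at day 14 (adjusted p = 0.0931), and Polrmt, the mitochondrial RNA polymerase, at -0.29 ± 0.11 (adjusted p = 0.176). Idh3b, of the citric acid cycle, stood at 0.13 ± 0.07 and Gpi, of glycolysis, at 0.15 ± 0.10.

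The ribosome and assembly lists shared the slope on the control signal. The mitochondrial ribosome had a median slope of -0.63, with 67 of 73 genes negative (91.8%) and 39 at an unadjusted p under 0.05 (53.4%). The further assembly factors had -0.45, with 27 of 33 negative (81.8%) and 14 at an unadjusted p under 0.05 (42.4%). Over all probe sets 56.6% were negative and 16.0% had such a p. Cox14, an assembly factor of complex IV, passed the threshold (-1.18 ± 0.21 SE, limma adjusted p = 0.0481), and Mrps16 did not (-1.28 ± 0.28, adjusted p = 0.0713). The citric acid cycle and glycolysis lists had median slopes of 0.08 and 0.07. With group means removed, the array means of the mitochondrial ribosome and the assembly factors followed that of the 86 genes with r = 0.94 and 0.92 (0.90 and 0.87 without the 2 farthest arrays), and those of the citric acid cycle and glycolysis with -0.25 and -0.43.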

How the data were processed

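RNA of single T11 ganglia was hybridised to Affymetrix whole-genome rat arrays. The deposited values are log2 expression levels made by the authors with RMA, per the submitters' processing notes, which also name limma, with versions and settings not given in the sources used here. RMA forces arrays to a common distribution, so a shift shared by most transcripts would be removed. Replicates are separate rats, per the labels. The number of arrays limits the precision.

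From these values, the 57 control probe sets were set aside and the other 31042 were fitted with limma 3.58.1 (R 4.3.3; lmFit and eBayes, all 3 groups in 1 fit, 16 residual degrees of freedom), with Benjamini-Hochberg adjustment over all of them and a threshold of 0.05. Values after ± are SE for differences and slopes. The slope on the control signal was fitted with group in the model. The control signal was compared between groups with an exact permutation test. The scripts were tested on simulated data. Other steps used Python 3.11.15, numpy 2.4.6, scipy 1.17.1, pandas 2.3.3 and matplotlib 3.10.9.

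Genes were named from the platform annotation, through probe sets with a single symbol. Genes named in the text were any past the threshold, the highest and lowest of each complex at each day, the 3 of smallest p in each comparison, complex II, tissue-restricted forms and their partners, and the 3 steepest slopes in each direction. Other lists were represented by the gene past the threshold or that of smallest p. The members and lists were chosen with earlier results of these data known. Replicate numbers were checked as pairs: deviations of the 17 same-numbered pairs correlated from -0.26 to 0.33, with 3 over 0.1, and the rats differ, so the numbers were not taken to pair arrays. Marker lists had median log2 differences at day 7 and day 14 of -0.01 and 0.02 for sensory neurons, 0.06 and 0.10 for satellite glia, -0.21 and 0.02 for myelinating Schwann cells, -0.21 and 0.09 for fibroblasts, -0.04 and -0.49 for skeletal muscle, -0.09 and 0.08 for macrophages, 0.12 and 0.16 for endothelium, 0.01 and 0.13 for adipocytes and -0.60 and -0.38 for erythrocytes, with 0 markers past the threshold.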

Additional observations from a re-analysis of the deposited data

Results flagged for a closer look

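Single arrays stood apart from the rest of their group in 10 of 117 groups of values examined. The groups of values come from the same arrays and are not independent. Cox6a2 and the skeletal muscle marker mean, for example, were both flagged on naive replicate 1 and on day 7 replicate 7. Whether the count exceeds chance was therefore not tested. Cox6a2 read 7.09 on naive replicate 1, with the next array at 5.07, and 6.13 on day 7 replicate 7, with the next at 5.03. The skeletal muscle marker mean stood high on 3 arrays. It was 9.37 on naive replicate 1 where the following naive array had 6.56, and 9.04 on day 7 replicate 7 where the following one had 7.06. Day 14 replicate 2 had 7.81, above 6.35 on the array after it. Cox7b2, a dim gene, read 4.39 on naive replicate 1, with the next at 4.30.

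Uqcrfs1 read 10.39 on naive replicate 4, with the next array at 10.88, and Ndufa4 read 12.86 there, with the next at 12.96. Ndufaf4 read 8.0 on day 14 replicate 6, with the next at 8.42. Atp5mpl read 10.12 on day 14 replicate 2, with the next at 10.44. The causes were not tested.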

How the results depend on the processing

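The count of oxidative phosphorylation genes past the threshold was 0 in each group comparison under every alternative run. Leaving out 1 array at a time, the median difference ran from -0.036 to 0.022 at day 7, from -0.029 to 0.039 at day 14 and from -0.011 to 0.016 between day 14 and day 7. Without the 3 arrays high in muscle transcripts it was 0.036, 0.043 and 0.01. With replicate number as a block the medians were -0.007, 0.017 and 0.003 and no call changed, but unadjusted slopes under 0.05 numbered 16 in place of 40. With the animal code letters as a block they were -0.007, 0.02 and 0.012. At day 14, 1 gene (1.16%) in place of 6 then had an unadjusted limma p under 0.05, against 6.43% of all probe sets in place of 19.7%. This block gave the highest adjusted p at day 14 for Ndufv2, Ndufb5, Sdhc, Ndufaf4, Cox7b2 and Cox8b. AI occurred at day 14 alone, so code and day cannot be fully told apart. The number of slopes past the threshold, 0, became 1 with trend and robust settings, 1 without group in the fit, 1 with Gapdh alone, 11 with hexokinase alone (added after seeing the data) and 5 at an adjusted p of 0.1. It ran from 0 to 4 when 1 array was left out, with 4 without day 14 replicate 4 (Atp5if1, Atp5pd, Cox4i1 and Ndufc2).

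The control signal difference ran from -0.081 to 0.03 at day 7 and from -0.084 to 0.026 at day 14 with 1 array left out, turning positive without naive replicate 4. With hexokinase alone it was 0.172 and 0.183, and with Gapdh alone it was -0.203 at day 14 (exact permutation p = 0.0391, adjusted 0.0985). Among 69 results of single genes, 6 of 2210 alternatives turned a value larger than its SE. Cox6a2 at day 14 ran from -0.517 to 0.062 with 1 array left out, the highest without naive replicate 1, and the slope of Ndufaf8 was 0.455 with Gapdh alone. With beta-actin and Gapdh as a covariate, added after seeing the data, Ndufs1 at day 14 was -0.028, Sdhd was -0.017 at day 7 and -0.024 at day 14, and Uqcrfs1 at day 14 was -0.009. The causes were not tested. Dim genes are limited by background.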
